A study of Ictidomys tridecemlineatus with 5 samples.

Results

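Transcripts of LINE-1 and of genes that descend from transposable elements were described in RNA from the eye and the retina of Ictidomys tridecemlineatus, a ground squirrel whose retina is rich in cones. They were the assembled transcripts whose best Swiss-Prot hit carried the words LINE-1, transposable element, retrovirus-related Pol, endogenous retrovirus or retrotransposon in its description. This wording matched 574 of 61797 transcripts with a hit in eye and 1076 of 62889 in retina, under 20 hit names. One of these names, TRI18, is Midline-1, a ubiquitin ligase matched only because the letters of LINE-1 stand inside its name. Its 1 transcript in eye and 2 in retina were left out, which leaves 573 and 1074 transcripts under 19 names, called families below. RNA came from eye (2 libraries) and from retina (3 libraries) of wild-type animals, and per the labels each library preparation pooled RNA of 4 animals. No age, sex or treatment is given in the labels. Each tissue has 1 deposited value for a transcript and none per library, so no difference below has a replicate check and no test was run.

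LINE-1 is a retrotransposon that copies itself through RNA. An intact copy encodes an RNA-binding protein and a second protein, ORF2, with endonuclease and reverse transcriptase activity, and most copies in mammalian genomes are truncated and can no longer move. Such fragments are also transcribed as parts of introns, untranslated regions and other host RNAs. Other transposable elements have left single-copy host genes, among them the Tigger and PiggyBac families, whose founders were DNA transposons, and genes such as PEG10 that descend from the gag and pol genes of retrotransposons.

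The label of the set held for most of its transcripts and not for all of its families. LINE-1 open reading frames made up 1571 of the 1647 transcripts, under 2 names: POL2, the mouse LINE-1 Pol polyprotein, and LIN1, a LINE-1 reverse transcriptase homolog of the slow loris. The words endogenous retrovirus matched 0 transcripts in either table. The words transposable element matched 27 transcripts in eye and 24 in retina. Their best hits were genes derived from DNA transposons, which are not retroelements. The word retrotransposon matched 5 transcripts in each tissue.

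The tissues separated as labelled. Levels are in RPKM, reads per kilobase of transcript scaled to the size of the library. This unit was inferred from the values, and its scaling to the library was assumed. The lens crystallin CRYAA had 2350 RPKM in eye against 0.530 in retina, and the photoreceptor protein recoverin 973 against 2103. Whole eye holds the retina beside other tissues, and fewer cells of a type cannot be told apart from less RNA per cell. Under this reading of the unit, a transcript of 1000 bases at 1 RPKM rests on 264 reads in eye and 356 in retina. Reads recovered from the values summed to 19.2 times the total used for scaling in eye and 10.5 times in retina, so that a read may count on more than 1 transcript. The part of this in the results for a repeated element was not tested.

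LINE-1 transcripts had like median levels in the tissues, but 1.959 times as many of them were listed in retina. POL2 had 388 transcripts in eye and 776 in retina, and LIN1 had 143 and 264. Together they were 0.859% of the transcripts with a hit in eye (95% exact binomial interval 0.788 to 0.935) and 1.65% in retina (1.56 to 1.76), a share 1.92 times as large. All assembled transcripts, with or without a hit, numbered 165650 in eye and 214063 in retina, and 37.3% and 29.4% of them had a hit. Over all assembled transcripts the share in retina was also larger, but by less than 1.92 times. Intervals here cover counting error only, and the tissues were assembled separately. Retina also had more reads and 1 more library than eye, and the part of depth in the number of transcripts was not tested. Among transcripts of 200 bases or more the shares were 1.33% in eye (1.21 to 1.46) and 2.21% in retina (2.07 to 2.36). Among transcripts at 10 RPKM or more they were 0.192% (0.153 to 0.239) and 0.463% (0.399 to 0.535), so that the larger number in retina was also seen above the lowest levels.

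The larger number was found at every length. Retina had 156 LINE-1 transcripts under 200 bases against 86 in eye, 400 against 186 from 200 to under 500 bases, and 102 against 50 at 2000 bases or more. Transcripts with other hits followed this order only from 500 bases upward, with 1.17 to 1.29 times as many in retina per length class, where LINE-1 had 1.66 to 2.04 times as many. From 200 to under 500 bases they numbered 5581 in eye and 5449 in retina, 0.976 times as many in retina, where LINE-1 transcripts were 2.15 times as many. Under 200 bases other transcripts were fewer in retina, 22768 against 28328. In the range of 200 to under 500 bases LINE-1 made up 3.22% of all transcripts with a hit in eye and 6.84% in retina, against 0.373% and 0.650% at 2000 bases or more.

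**Figure D1:**
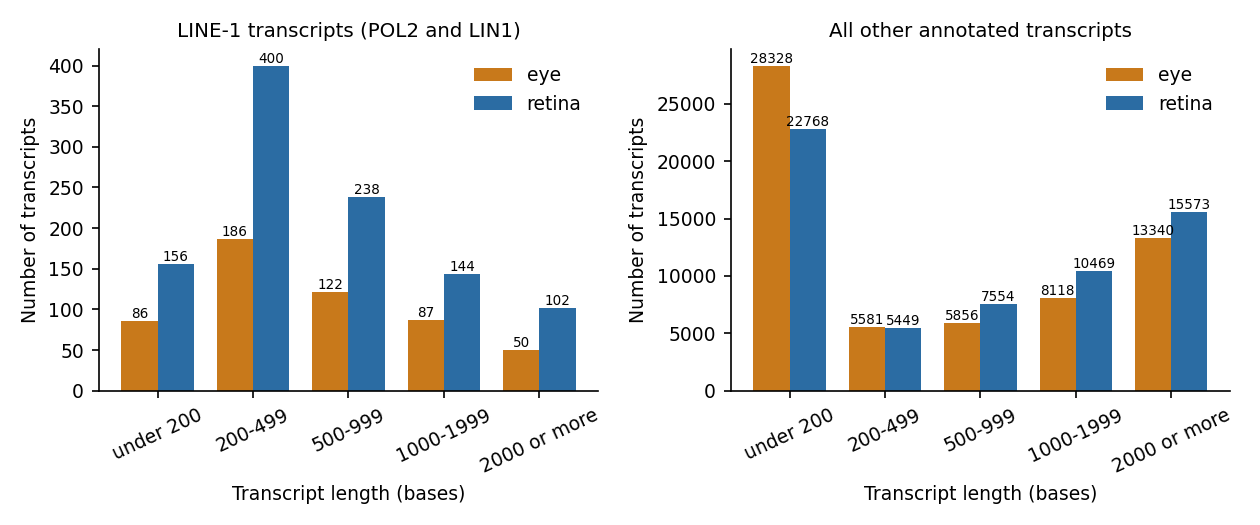
Number of transcripts (vertical axis) by length in bases (horizontal axis) in eye and retina, for LINE-1 (left) and for all other transcripts with a Swiss-Prot hit (right). The bar for retina is higher than that for eye in every length class of LINE-1, 400 against 186 from 200 to under 500 bases, while the other transcripts of that class number 5449 and 5581.

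Most LINE-1 transcripts were low in level and far shorter than an intact element, which spans several kilobases. The median length was 486 bases in eye and 453.5 in retina. All transcripts with a hit had medians of 307 and 653 bases, and 46.0% and 36.5% of them were under 200 bases, against 16.2% and 15% of LINE-1. POL2 transcripts ran from 102 to 5715 bases in eye and from 104 to 7699 in retina. LIN1 transcripts ran from 126 to 4668 and from 110 to 7527 bases. The median level of POL2 was 2.41 RPKM in eye (quartiles 1.02 and 6.12) and 2.40 in retina (0.757 and 6.88). LIN1 stood at 1.499 RPKM in eye (0.694 and 4.13) and 2.28 in retina (0.699 and 7.51). All transcripts with a hit had medians of 39.5 and 20.04 RPKM, and those of 200 bases or more 8.37 and 8.64 RPKM. The difference from other transcripts with a hit depended on length. From 200 to under 500 bases LINE-1 had medians of 2.36 RPKM in eye and 2.91 in retina, against 2.47 and 1.63 for the others. In every other length class LINE-1 was lower in both tissues. From 500 to under 1000 bases its medians were 1.27 and 1.41 RPKM, against 9.49 and 9.46. Of LINE-1 transcripts 80 in eye (15.1%) and 183 in retina (17.6%) reached 10 RPKM, and 152 (28.6%) and 333 (32.0%) lay below 1 RPKM.

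**Figure D2:**
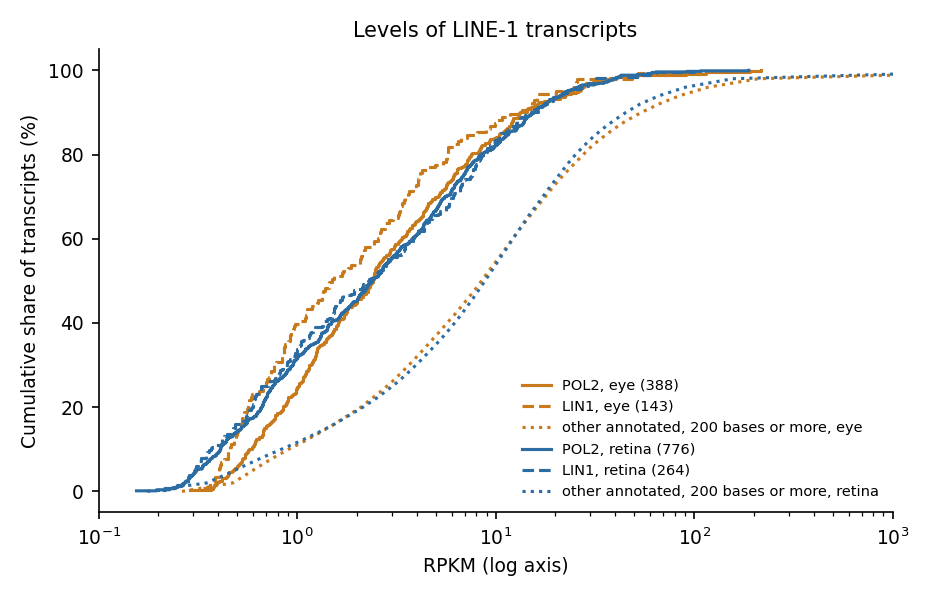
Cumulative share of transcripts (vertical axis, percent) against RPKM (horizontal log axis) for POL2 and LIN1 of all lengths in eye and retina. Other transcripts of 200 bases or more that have a hit are dotted lines. The LINE-1 curves lie to the left of the dotted ones, with POL2 medians of 2.41 RPKM in eye and 2.40 in retina.

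Summed levels differed in the same direction as the numbers. POL2 transcripts summed to 2615 RPKM in eye and 4885 in retina, 1.87 times as much, and LIN1 transcripts to 730 and 1619, 2.22 times as much. Recovered reads on LINE-1 transcripts came to 0.255% of the scaling total in eye and 0.525% in retina, 2.06 times as much. All recovered reads sum to far more than that total, and by a different factor in each tissue. Of all recovered reads, those on LINE-1 transcripts were 0.0133% in eye and 0.0499% in retina. Of the summed value of all transcripts of 200 bases or more with a hit, LINE-1 took 0.288% in eye and 0.603% in retina. A few transcripts weighed more in eye, where the 10 highest held 28.4% of the LINE-1 sum, against 13.2% in retina. These 10 are a larger part of the 531 LINE-1 transcripts of eye than of the 1040 of retina, and the effect of this was not tested.

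The highest LINE-1 transcripts were mostly weak or partial matches. In eye the 3 highest POL2 transcripts had 218 RPKM on 596 bases, 191 RPKM on 241 bases and 115 RPKM on 560 bases. They aligned with the LINE-1 protein over 104, 45 and 104 amino acid positions, at similarities (positive positions of the alignment) of 50%, 64% and 50%. In retina the 3 highest had 189 RPKM on 1043 bases, 108 RPKM on 4704 bases and 92.2 RPKM on 693 bases, at similarities of 42%, 50% and 46%. All of these lie below the median POL2 similarity of 71% in eye and 70% in retina. The highest LIN1 transcript of eye had 103 RPKM on 1851 bases, of which 17.2% aligned. The next ones in eye, at 52.1 RPKM on 404 bases and 48.6 RPKM on 349 bases, aligned over 98.8% and 99.7% of their length at 75% similarity. The 3 highest LIN1 transcripts of retina stood at 99.4, 64.1 and 60.2 RPKM on 479, 296 and 253 bases, and 75.2%, 99.3% and 99.6% of these lengths aligned.

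The transcripts with the longest alignments were not the most abundant ones. The longest alignment was 557 positions in eye, on a POL2 transcript of 1688 bases at 8.52 RPKM, and 548 positions in retina, on one of 1670 bases at 11.4 RPKM. Both aligned over nearly their whole length, 99.0% and 98.4%, at 75% similarity. Alignments of 300 positions or more numbered 7 in eye and 11 in retina, and the median alignment was 67 positions in both tissues. In LIN1 the longest alignment was 438 positions in eye, at 4.07 RPKM and 40% similarity, and 382 in retina, at 16.8 RPKM and 45% similarity.

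The aligned share of LINE-1 transcripts ranged from nearly all of a transcript to a small part of it. Most transcripts lay between, with 320 in eye and 637 in retina aligned over 20% to under 90% of their length. In eye 115 transcripts (21.7%) and in retina 222 (21.3%) aligned over 90% or more of their length. These were short, with median lengths of 203 and 203.5 bases, and had median levels of 4.54 and 5.93 RPKM. At the other end 96 transcripts in eye (18.1%) and 181 in retina (17.4%) aligned over less than 20%, with median lengths of 1715 and 1801 bases and median levels of 2.38 and 2.22 RPKM. The 108 RPKM transcript of retina is of this kind, with 11.99% of its 4704 bases aligned.

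Levels were higher among transcripts closer to the LINE-1 protein. At a similarity of 80% or more, 27 of 79 transcripts in eye (34.2%) and 65 of 187 in retina (34.8%) reached 10 RPKM, and median levels were 5.60 and 6.72 RPKM. From 50 to 59% similarity 6.38% of 94 and 6.36% of 173 reached it, with medians of 1.26 and 0.975 RPKM. Transcripts of high similarity were also shorter, with median lengths of 229 and 280 bases against 769.5 and 898, and the part of length in this difference was not tested. Under 50% similarity the tissues differed, as 1 of 43 transcripts reached 10 RPKM in eye (2.33%) and 9 of 69 in retina (13.0%).

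**Figure D3:**
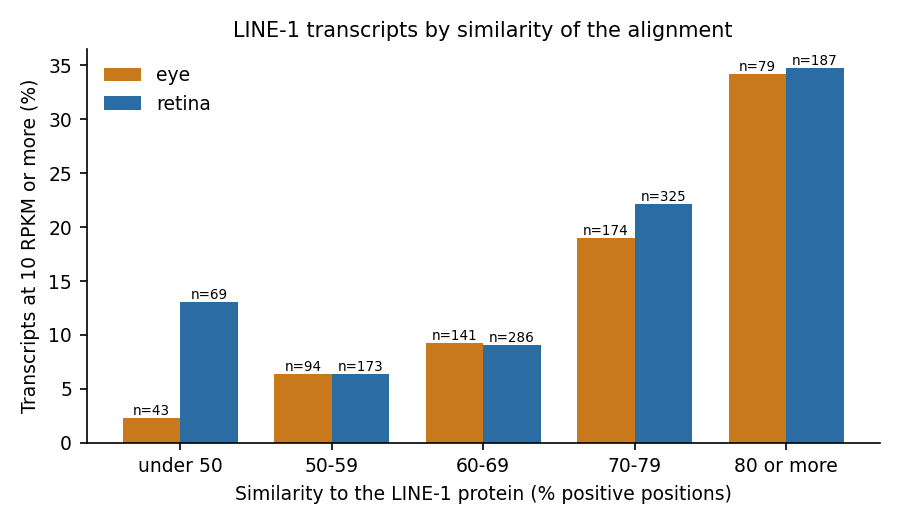
Share of LINE-1 transcripts at 10 RPKM or more (vertical axis, percent) by similarity of the alignment (horizontal axis, percent of positive positions) in eye and retina, with the number of transcripts above each bar. The share is 34.2% and 34.8% at 80% similarity or more and 6.38% and 6.36% from 50 to 59%.

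To compare like with like, transcripts were paired between the tables where they had the same hit, score, alignment length and number of positive positions, each once per table. This gave 76 LINE-1 pairs, which held 14.3% of the LINE-1 transcripts of eye and 7.31% of those of retina. Of the other transcripts with a hit, 13.0% and 12.8% were paired. Paired LINE-1 transcripts were longer than unpaired ones, with medians of 972 bases in eye and 1071.5 in retina against 426 and 428. An identical alignment does not prove that both transcripts come from 1 genomic copy. Lengths within a pair could also differ, as in a LIN1 pair of 740 bases in eye and 4686 in retina. A difference is given as log2(RPKM + 1) of eye less that of retina, a scale that understates the difference of low transcripts.

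LINE-1 transcripts in pairs were lower in eye than in retina. Their median levels were 1.94 RPKM in eye and 2.69 in retina, and the median difference was -0.32 (quartiles -0.57 and -0.11). Of the 76 pairs 61 were higher in retina (80.3%), 45 of 55 for POL2 and 16 of 21 for LIN1. The 7935 pairs of transcripts that are no members had a median difference of 0.0035, and 49.7% were higher in retina. Restricted to 200 bases or more and to the middle range of LINE-1 levels, 1076 such pairs had a median of -0.019, and 51.7% were higher in retina. At least 2-fold differences were found in 8 LINE-1 pairs toward retina (10.5%) and 4 toward eye (5.26%), against 1.79% and 6.67% of the other pairs.

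Single pairs showed how far the tissues could differ. These were chosen after their values were seen. The most abundant pair, of POL2, had 91.1 RPKM in eye and 108 RPKM in retina, on transcripts of 4209 and 4704 bases that share an alignment of 188 positions. A POL2 pair at 12.04 and 26.9 RPKM lay on transcripts of 558 and 608 bases. The largest difference toward retina was a LIN1 pair at 0.741 and 14.1 RPKM, and the largest toward eye a POL2 pair at 27.3 and 2.19 RPKM on transcripts of 155 and 324 bases. Among LIN1 pairs the one with the longest alignment, 382 positions, was close between the tissues, at 20.1 and 16.8 RPKM.

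**Figure D4:**
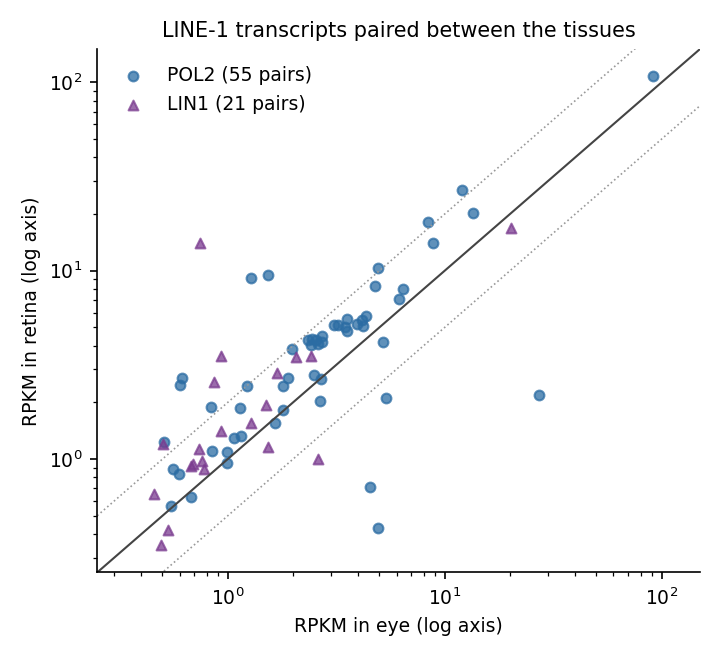
RPKM in retina (vertical log axis) against RPKM in eye (horizontal log axis) for 76 LINE-1 pairs with identical alignments, circles for POL2 and triangles for LIN1. The solid line marks equality and the dotted lines 2-fold differences. Of the points 61 lie above the solid line.

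The second kind of member had best hits to host genes of transposon origin, with 16 families on 40 transcripts in eye and 31 in retina. POL1, a retrovirus-related Pol, was a further family. For each family the level of a family is the RPKM of its highest transcript, and 95% intervals of a difference cover counting error only. These intervals treat recovered reads as independent counts. A read may count on more than 1 transcript, and the effect of this on the intervals was not tested. All 19 families, LINE-1 included, were in both tables, and 18 reached 1 RPKM in either tissue. Of these 18, 1 passed 2-fold toward eye and 1 toward retina (each 1 of 18), against 11.8% and 3.6% of 13383 proteins. The median difference over the 18 was -0.12, beside -0.0035 over all proteins, with 7 families higher in eye and 11 in retina, where 50.3% of all proteins were higher in retina. For scaling to an equal total, eye values were multiplied by 0.825, which equalized the sums of the highest transcripts of the 13383 proteins. It did not equalize the sums of all transcripts with a hit. After this scaling the split was 1 and 17, and 66.4% of all proteins were higher in retina. The median of all proteins moved by -0.24 and that of the families to -0.35. By their highest transcripts POL2 differed by 0.20 (0.19 to 0.22) and LIN1 by 0.045 (0.020 to 0.069), and both had the opposite sign with that scaling (-0.071 and -0.23) and with summed transcripts (-0.90 and -1.15).

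The family past 2-fold toward eye was LITD1, the protein L1TD1, an RNA-binding protein that descends from the first open reading frame of LINE-1 and is known from pluripotent cells. Eye had 8 transcripts, at 99.0 RPKM on 825 bases, 37.8 RPKM on 3307 bases and 0.337 to 0.882 RPKM for the remaining ones. Retina had 2, at 30.3 RPKM on 3732 bases and 0.506 RPKM on 561 bases. The difference of 1.67 (1.65 to 1.70) rested on the transcript of 825 bases, of which 20% aligned, over 55 positions. Between the longest transcripts of the tissues, at 37.8 and 30.3 RPKM, the difference was 0.31. Both long transcripts aligned over a small part of their length, 5.72% and 6.83%, at similarities of 58% and 56%, so that the name L1TD1 rests on weak matches.

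The family past 2-fold toward retina was POL1, a retrovirus-related Pol polyprotein of the mouse. Its transcripts stood at 2.39 and 1.94 RPKM in eye and at 6.15, 0.942 and 0.776 RPKM in retina. The highest differed by -1.08 (-1.21 to -0.94), on 232 reads in eye and 2574 in retina. With a pseudocount of 5 the difference was -0.59. The highest transcripts are unlike each other. In eye 97.3% of 367 bases aligned at 78% similarity, in retina 29.1% of 1176 bases at 86%. Each tissue also had a transcript at 79% similarity, aligned over 123 positions in eye and 120 in retina. Between these the order was opposite, 1.94 against 0.942 RPKM. Longest transcripts (-1.28) and summed transcripts (-0.73) kept the direction toward retina.

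Genes derived from PiggyBac transposases, which cut and paste DNA, were higher in retina by their highest transcripts, each by less than 2-fold. PGBD5, a member of the family known for its expression in brain, had 12.3 RPKM in eye and 19.5 RPKM in retina, and so differed by -0.63 (-0.67 to -0.59). PGBD2 was at 3.14 and 4.10 RPKM (-0.30), and PGBD1, which also carries a zinc finger protein's SCAN domain, at 5.13 and 5.71 (-0.13). PGBD5 had 2 transcripts in eye and 1 in retina, and its sums were 22.2 and 19.5 RPKM, in the opposite order.

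Genes derived from Tigger and pogo transposases differed by less than 2-fold in their highest transcripts, and the larger differences were toward retina. TIGD4 had 3.73 RPKM in eye and 5.91 RPKM in retina (-0.55, -0.59 to -0.51), on single transcripts of 4854 and 4925 bases with the same alignment length of 512 positions. TIGD1 was at 9.81 and 14.2 RPKM (-0.49), and TIGD5 at 3.73 and 4.14 (-0.12). TIGD2, at 6.10 and 5.75 RPKM, TIGD7, at 5.17 and 4.86, and TIGD6, at 2.15 and 1.98, differed by 0.075, 0.073 and 0.082 and changed sign with scaling to an equal total. The highest TIGD6 transcripts are unlike each other, a match of 94% similarity over 525 positions in eye and of 54% over 133 positions in retina. Those with the same alignment of 525 positions stood at 2.15 and 1.85 RPKM, and the sign for TIGD6 also changed with summed and with longest transcripts. TIGD3, at 0.822 and 0.778 RPKM, was under 1 RPKM in both tissues. POGZ, a chromatin regulator with zinc fingers, was at 6.84 and 8.82 RPKM (-0.32), and POGK, which carries a KRAB domain, at 10.9 and 11.0 (-0.0087). The sums of POGK were 30.3 and 11.0 RPKM, since eye had 3 transcripts and retina 1, while those of POGZ were 14.8 and 14.6.

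TIGD1 had the most transcripts of the Tigger genes. There were 10 transcripts in eye and 8 in retina, at similarities of 47 to 76% and 43 to 57%, whereas TIGD2, TIGD3, TIGD4 and TIGD7 had 1 transcript per tissue at 87 to 92%. TIGD5 had 1 transcript in eye and 2 in retina at 78 to 81%, and TIGD6 had 2 per tissue, 1 at 54% and 1 at 94%. Of the TIGD1 transcripts 4 in each tissue lay below 1 RPKM. Its highest transcripts in the tissues, of 2462 and 2435 bases, had the same alignment of 183 positions at 50% similarity. The level given for TIGD1 thus rests on a weak match, and whether these transcripts come from the TIGD1 gene was not tested.

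Genes derived from retrotransposons differed by less than 2-fold in their highest transcripts. RGAG4, known as RTL5, a protein with the capsid-forming domain of a retrotransposon gag, had 9.92 RPKM in eye and 13.4 RPKM in retina (-0.40, -0.43 to -0.37). Its sums were 9.92 and 32.5 RPKM, as retina had 3 transcripts and eye 1, which is past 2-fold (-1.62). PEG10, an imprinted gene needed for placental development, was at 6.36 and 7.35 RPKM (-0.18, -0.23 to -0.14), while its sums of 13.1 and 7.35 RPKM, over 3 transcripts in eye and 1 in retina, had the opposite order. GIN1, which resembles the integrase of Gypsy elements, was at 1.90 and 1.66 RPKM (0.12, 0.041 to 0.20), an order that turned with scaling to an equal total.

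**Figure D5:**
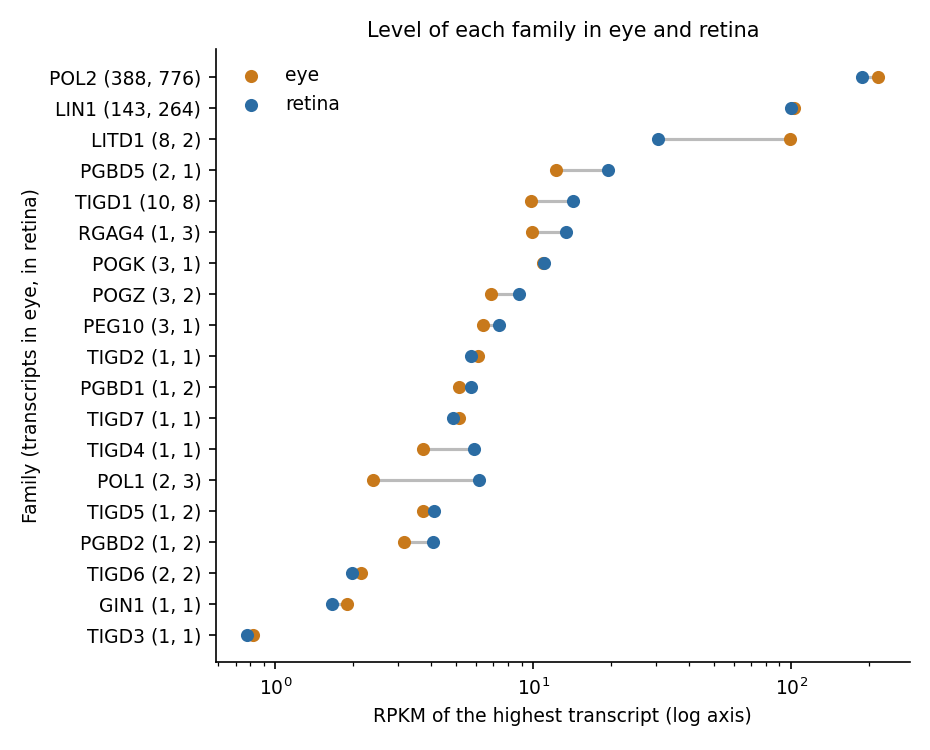
RPKM of the highest transcript (horizontal log axis) of each of the 19 families (vertical axis, with the number of transcripts in eye and retina) in eye and retina. The families run from TIGD3, at 0.822 and 0.778 RPKM, to POL2, at 218 and 189 RPKM, and the widest gaps are those of LITD1 and POL1.

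Genes linked to the control of retroelements were compared from a list of 61 Swiss-Prot names, some of which are alternative names of 1 gene. The list was not limited to genes that silence or restrict retroelements, so its counts mix different roles. Of these, 42 were in both tables and 41 reached 1 RPKM. Their median difference was -0.083, with 15 higher in eye and 26 in retina (63.4%, beside 50.3% of all proteins). After scaling to an equal total 33 of 40 were higher in retina (82.5%, beside 66.4%). In the values as deposited 1 passed 2-fold in each direction, 1 of 41 each beside 11.8% and 3.6% of all proteins. By their mean over the tissues the 6 most abundant were YBOX1, an RNA-binding protein, at 446 RPKM in eye and 437 RPKM in retina, the poly(A)-binding protein PABP1 at 131 and 113, the heterochromatin protein CBX3 at 112 and 123, TIF1B (TRIM28), the corepressor of KRAB zinc finger proteins, at 65.5 and 65.5, the deacetylase HDAC2 at 33.5 and 35.4, and the demethylase KDM1A at 28.5 and 34.6. The 2 past 2-fold are named after their values were seen. MOV10, an RNA helicase that restrains LINE-1, had 33.8 RPKM on 1182 bases in eye and 8.56 RPKM on 4523 bases in retina. RNH2C, a subunit of ribonuclease H2, was at 14.2 and 33.5 RPKM. The germ line markers DDX4, DAZL, MAEL and TDRD1 had no hit in either table, and PIWL1, a PIWI protein that silences transposons in the germ line, stood at 0.770 and 2.05 RPKM. Other genes of that pathway were detected, TDRKH at 9.17 and 13.5 RPKM, TDRD9 at 3.41 and 7.02, and TDRD5 at 0.467 and 1.02. PIWL4 was found in eye alone at 0.800 RPKM, and PIWL2 and M10L1 in retina alone at 0.2495 and 0.290.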

How the data were processed

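RNA of eye and retina was measured by RNA sequencing, with 1 deposited table of transcripts and 1 of Swiss-Prot hits per tissue. Bowtie is named, with no version, per the submitters' processing notes. No source used here gives the assembler, the counter or the search program. Per the file headers the deposited values are expression values. They were read as RPKM by the authors' scaling. Value times length was a whole multiple of 1 constant, within 0.01 reads, for 99.994% of transcripts in eye and 99.996% in retina. This shows division by length, while the scaling to the size of the library was assumed. The smallest product of value and length was taken as 1 read. Similarity is a deposited percent of positive positions, and the deposited score of a hit was used only to pair transcripts. Hits had E-values under 1e-05.

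Members were found with Python 3.11.15 and pandas 2.3.3 by the words of the rule, joined by transcript identifier and grouped by hit name before the species code. Levels, differences (pseudocount 1, filter of 1 RPKM in either tissue, mark at 2-fold) and pairs follow the definitions in the results. Exact binomial intervals came from scipy 1.17.1, and intervals of differences from the Poisson variance of recovered reads. With 1 value per tissue no test was run. All families were named, with the 3 highest LINE-1 transcripts per tissue and the 6 most abundant control genes. The members and lists were chosen with earlier results of these data known. The comparison of levels was tested on simulated Poisson read counts, which do not model reads counted on more than 1 transcript. The pairing was checked only by matching the retina transcripts to a shuffled copy of themselves. The alternatives were other levels (summed, best-matching or longest transcript), lengths, E-values, pseudocounts, filters, scalings and organisms. RefSeq gene names (assembly mIctTri1.hap1, used for names only) held the symbols of 13 of 16 host genes.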

Additional observations from a re-analysis of the deposited data

How the results depend on the processing

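No paired analysis was possible because the tables hold 1 value per tissue and none per library, and for the same reason no library could be left out. The count of 1 family at least 2-fold higher in eye was 2 with summed transcripts (LITD1 and POGK) and with E-values of 1e-10 or less (LITD1 and POL2), and 0 with the longest transcript. The count of 1 in retina was 2 with summed transcripts (LIN1 and RGAG4), 3 with the longest transcript (LIN1, POL1 and POL2) and 0 with pseudocount 5 or the filter of 10 RPKM, which kept 7 families. The best-matching transcript gave 1 in each tissue, LIN1 and POL1. The median over families was -0.18 with the best-matching transcript, -0.28 with the longest, -0.073 with pseudocount 5, -0.0087 with the filter of 10 RPKM and -0.35 with scaling to an equal total. The LITD1 difference was 4.69 with E-values of 1e-10 or less, which drop the highest LITD1 transcript of both tissues. LINE-1 pairs had a median of -0.66 over 7 pairs aligned over 50% or more of both transcripts, -0.46 over 12 pairs with a score of 100 or more, -0.43 with pseudocount 0.1, -0.17 with pseudocount 5 and -0.52 with scaling to an equal total, where 66 of 76 were higher in retina, beside 67.7% of the other pairs. The share of the summed value in all member transcripts, 0.00930% in eye and 0.0269% in retina, was 0.316% and 0.624% among transcripts of 200 bases or more, and 0.0150% in eye with mammalian hits. Numbers and median lengths of member transcripts stayed within 1.5 times under the alternatives run. The longest-transcript, equal-total and pair alternatives and those for the control genes were added after seeing the data.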

Other observations

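Related elements lay just outside the wording that chose the members. TR22, a mouse LINE-1 entry described as a putative transposase element, had 14 transcripts in eye and 25 in retina, with median levels of 2.15 and 2.49 RPKM and highest levels of 6.39 and 28.4 RPKM. Swiss-Prot names endogenous retroviruses as provirus ancestral proteins, and 28 transcripts in eye and 64 in retina had such a hit. Of these, 17 and 28 were Env, the envelope protein, 6 and 23 were Gag, the capsid precursor, and 5 and 13 were Pol, the enzyme precursor. Their median levels were 1.41 RPKM in eye and 0.949 in retina, and the highest were 14.8 and 42.7 RPKM. Transcripts under the plain names GAG, POL and ENV, whose best hits are retroviral proteins, numbered 139 in eye and 242 in retina, at median levels of 4.50 and 2.05 RPKM. In each of these groups retina had the larger number, as it had for LINE-1, and no test was made.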
